A study of Mus musculus with 6 samples.

Results

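The 7 genes described here encode receptors and ligands of noncanonical Wnt signaling, and they were selected by gene symbol from the 27506 genes listed in the count table. They are the receptors *Ror1*, *Ror2*, *Ryk* and *Ptk7* and the ligands *Wnt5a*, *Wnt5b* and *Wnt11*. RNA was sequenced from the dental pulp of mandibular first molars of C57BL/6 mice at P3.5 (3.5 days after birth), in 3 control and 3 mutant libraries. Control mice were *Ror2fl/fl* and mutant mice were *Osr2-Cre;Ror2fl/fl*, so that both groups carry floxed alleles of *Ror2* and the groups differ in the Cre transgene. The mutants came from *Osr2-Cre;Ror2fl/+* fathers and *Ror2fl/fl* mothers. By the study's lineage tracing, *Osr2-Cre* is active in the dental mesenchyme and the alveolar bone, and the dental epithelium is not recombined. Whether each library came from a separate animal is not stated in the labels, so that p-values cover the spread between these libraries only. The label of control library 1 also carries other letters than those of control libraries 2 and 3, with no explanation. The number codes in the labels begin with another digit in controls than in mutants, also with no explanation. Each label further carries an S with a digit, and the same ones recur in both groups, unexplained as well. Whether the groups were handled apart is not stated, and such a difference could not be told apart from genotype.

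Noncanonical Wnt ligands act without stabilizing β-catenin. *Wnt5a* binds the receptor tyrosine kinases *Ror1* and *Ror2*, often together with a Frizzled receptor, and signals through Dishevelled to small GTPases and JNK, to planar cell polarity proteins or to intracellular calcium. *Ryk* and *Ptk7* are kinase-dead receptors that take part in the same branches. In the tooth, *Wnt5a* is known as a mesenchymal ligand with roles in tooth size and root formation.

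In brief, *Ror2* and *Wnt5a* fell in the mutant libraries, and the other 5 genes did not pass the test. *Ror2* fell by 26% (95% interval of the change -35.3% to -15.3%) and *Wnt5a* fell by 40.1% (-53.1% to -23.6%). Adjusted p-values in the text are those of edgeR's quasi-likelihood test, adjusted by the Benjamini-Hochberg method over all genes tested, and a gene is called where this value is under 0.05. Of the 7 genes 2 were called, both lower, beside 20.2% of the 19330 genes tested. The control and mutant libraries did not overlap for 4 of the 7 genes, namely *Ror2*, *Ryk* and *Wnt5a*, which lay lower in mutants, and *Wnt11*, which lay higher. This compares with 44.7% of all genes tested, 22.1% lower and 22.6% higher. The counts of 2 and 4 were taken over only 7 genes chosen for their role.

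The promoters of *Ror2* and *Wnt11* are shown because these genes separated the genotypes with the least spread between libraries, in opposite directions. Each window runs from 250 bases before to 50 bases after the start of transcription in RefSeq (GRCm38.p6, the build named mm10 in the labels). The *Ror2* window is chr13:53286075-53286374 on the minus strand and the *Wnt11* window is chr7:98834862-98835161 on the plus strand, the first of 2 RefSeq starts of *Wnt11*. Capitals mark GC boxes (GGGCGG), the TCF/LEF core (ATCAAAG) and the TATA box (TATAAA), searched on both strands.
Ror2: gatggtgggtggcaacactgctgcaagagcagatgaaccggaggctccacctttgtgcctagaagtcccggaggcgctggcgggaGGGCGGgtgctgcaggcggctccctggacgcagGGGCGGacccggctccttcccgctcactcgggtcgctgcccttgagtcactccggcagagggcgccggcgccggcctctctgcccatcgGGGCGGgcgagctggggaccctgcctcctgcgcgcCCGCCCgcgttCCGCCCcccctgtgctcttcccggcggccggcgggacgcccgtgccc
Wnt11: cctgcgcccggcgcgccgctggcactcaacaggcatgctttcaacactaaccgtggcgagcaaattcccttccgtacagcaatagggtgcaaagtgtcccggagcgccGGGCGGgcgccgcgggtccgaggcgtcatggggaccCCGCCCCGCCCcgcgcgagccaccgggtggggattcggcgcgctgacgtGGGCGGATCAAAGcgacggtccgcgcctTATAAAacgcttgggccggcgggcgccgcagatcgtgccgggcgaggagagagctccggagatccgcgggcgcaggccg
The *Ror2* window was 74.7% G and C, with 32 CpG dinucleotides and 5 GC boxes, and held neither of the other motifs. The *Wnt11* window was 71.3% G and C, with 45 CpG dinucleotides and 4 GC boxes, of which an adjoining pair on the minus strand overlaps. It also held 1 TCF/LEF core, 51 bases before the start and directly after a GC box, and 1 TATA box, 29 bases before the start. Of 32851 mouse promoter windows of the same length, 35.7% held a GC box, 3.73% a TCF/LEF core and 13.6% a TATA box. Windows were found for 6 of the 7 genes, all but *Wnt5a*, and the windows not shown held between 0 and 3 GC boxes each. A *Wnt5b* window (chr6:119449337-119449636) held 1 TCF/LEF core, at position -71, and the *Ryk* window held 1 TATA box, at position -177. The window of the second *Wnt11* start (chr7:98838595-98838894) held 1 GC box and neither of the other motifs. These matches describe the letters only, and no binding was measured.

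All 7 genes passed the filter on low counts. Levels are in CPM, which are counts scaled by TMM to a common library size (mean ± SD, n = 3 per group), and serves only to compare libraries for the same gene. The libraries held between 56134770 and 62628940 estimated counts, and edgeR's common dispersion corresponds to a biological coefficient of variation of 18.7%. The median log2 fold change of all genes tested was 0.01. With 3 libraries per group, the smallest two-sided p that an exact permutation test allows is 0.1.

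*Ror2*, the targeted gene (ENSMUSG00000021464.14; chr13, 53109312 to 53286124, minus strand, mm10), was measured at 38.2, 36.2 and 36.7 CPM in control libraries 1, 2 and 3. In mutant libraries 1, 2 and 3 it was measured at 27.9, 28.1 and 26.3 CPM. All 3 mutant libraries lay below all 3 control libraries, and each group was tight, with a coefficient of variation of 2.77% in controls and 3.51% in mutants. The group levels were 37.0 ± 1.03 and 27.4 ± 0.961 CPM (log2 fold change -0.43, standard error 0.08, 95% interval -0.63 to -0.24, edgeR adjusted p = 0.013). The exact permutation test gave p = 0.1, the smallest possible. *Ror2* stood at position 1181 of the 19330 genes when these were ordered by p-value. Between 1553 and 2460 counts per library lay behind these values, which sum all exons of *Ror2*, so that transcripts with and without the floxed part were counted together.

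*Ror2* RNA, counted over all exons in bulk tissue, remained far above 0 in mutant libraries. In the study's immunostaining at P3.5, Ror2 protein was not detected in the mutant dental mesenchyme and was kept in the epithelium. The dental epithelium, in which *Osr2-Cre* is not active, was present in the libraries of both groups. The summed level of 10 epithelial markers ran from 172000 to 192000 CPM in control and from 185000 to 255000 CPM in mutant libraries, with overlap. None of the 10 genes was called in either direction, beside 20.2% of all genes tested. Most of the summed level was *Amelx* and *Ambn*, which encode the enamel proteins amelogenin and ameloblastin. *Amelx* was at 94400 ± 5380 CPM in control and 140000 ± 19200 CPM in mutant libraries (edgeR adjusted p = 0.085) and *Ambn* at 64700 ± 3900 and 60000 ± 13300 CPM. The part of epithelial *Ror2* in the level left in mutants was not tested. In bulk tissue, fewer cells that express a gene and less RNA per cell cannot be told apart.

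*Osr2*, whose regulatory sequences drive the Cre, was measured at 16.4, 15.3 and 15.2 CPM in the controls, against 20.1, 19.3 and 11.9 CPM in the mutants. The groups overlapped, and the log2 fold change was 0.13 (edgeR adjusted p = 0.65). Of 10 dental mesenchyme markers, *Osr2* among them, 2 were called higher and 0 lower in mutants. Over all genes tested, 10.4% were called higher and 9.84% lower. The higher ones were the homeobox genes *Msx2*, with a log2 fold change of 0.38 (edgeR adjusted p = 0.042), and *Dlx2*, with 0.51 (edgeR adjusted p = 0.012). The list was evenly divided, since 5 of the 10 had a log2 fold change below 0, the lowest being *Lhx8* with -0.64, *Runx2* with -0.52 and *Pax9* with -0.50 (edgeR adjusted p = 0.088, 0.078 and 0.063). The 10 markers summed to between 505 and 596 CPM in control and between 594 and 663 CPM in mutant libraries.

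Among the other marker lists reported here, only the skeletal muscle sums did not overlap between the groups. Over all genes tested, 20.2% were called. The 5 skeletal muscle markers were all lower in mutants, and their sum fell from between 8.12 and 30.9 CPM to between 1.91 and 2.17 CPM. Of 5 erythroid markers 2 were lower (*Hba-a1* and *Alas2*), with sums of 782 to 1320 CPM against 243 to 931 CPM. Of 5 macrophage and leukocyte markers 2 were lower (*Adgre1* and *Cx3cr1*), with sums of 78.8 to 98.4 CPM against 66.9 to 83.4 CPM. In that list *Cd68* went the other way, with a log2 fold change of 0.41 (edgeR adjusted p = 0.16). None of the 6 odontoblast markers, which summed to 3770 to 9690 CPM against 3430 to 7850 CPM, and none of the 5 endothelial markers, which summed to 164 to 220 CPM against 148 to 199 CPM, were called. No marker was at 0 in every library. The part of these cell types in the values of *Ror2*, *Wnt5a* and the other genes was not tested.

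**Figure D1:**
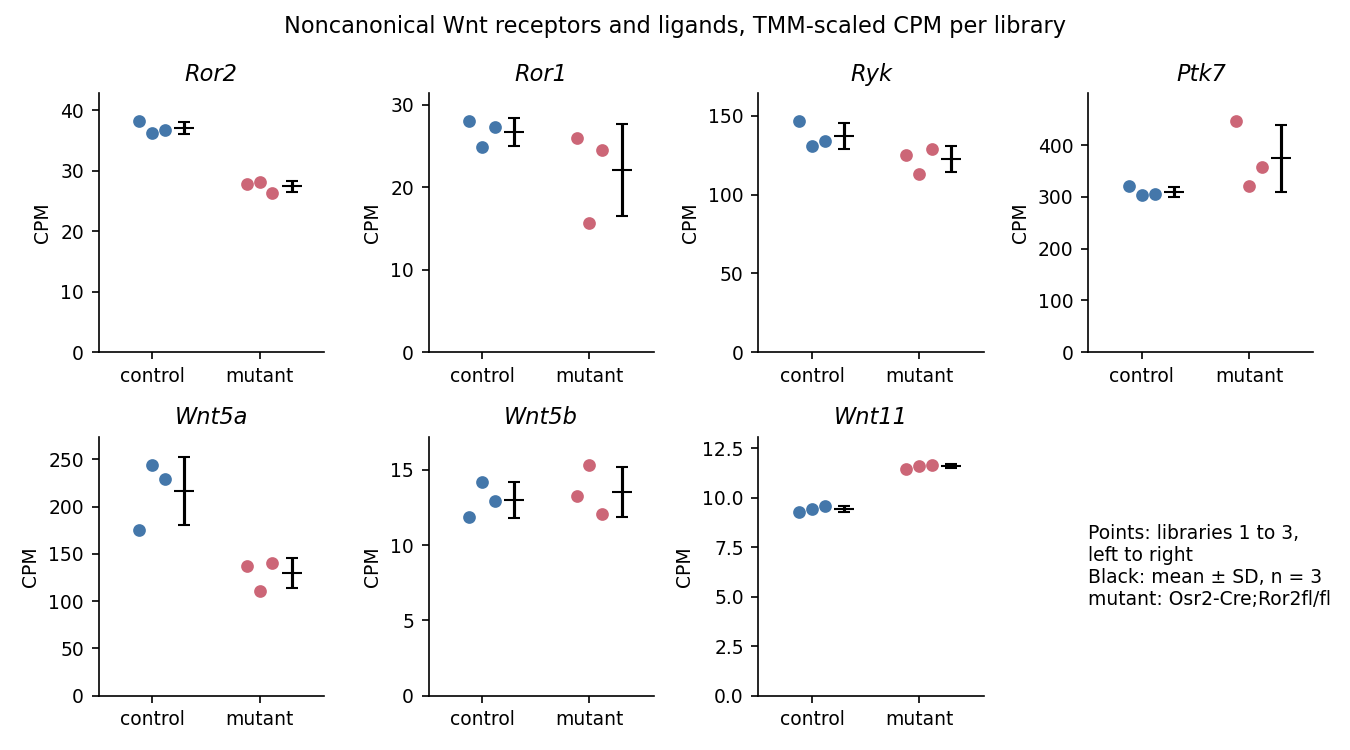
Expression of the 7 genes in each library (TMM-scaled CPM, linear axes from 0), with controls in blue and mutants in red, and mean ± SD (n = 3) in black. *Ror2*, *Ryk* and *Wnt5a* lie lower in all 3 mutant libraries than in any control library, and *Wnt11* lies higher in all 3. *Ror1*, *Ptk7* and *Wnt5b* overlap between the groups.

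*Ror1*, the closest relative of *Ror2* and also a receptor for *Wnt5a* (ENSMUSG00000035305.5; chr4, 100095791 to 100444765, plus strand), was measured at 28.0, 24.8 and 27.3 CPM in control libraries. In mutant libraries it was measured at 25.9, 15.6 and 24.5 CPM. Mutant library 2 lay well below the rest, and the other mutant libraries lay within or just below the range of the controls, so that the groups overlapped. The log2 fold change was -0.28 (standard error 0.18, 95% interval -0.69 to 0.14, edgeR adjusted p = 0.29). It moved to -0.07 (edgeR adjusted p = 0.62) without mutant library 2. An increase of *Ror1* in place of *Ror2* was not detected, and the interval reaches from 0.619-fold to 1.1-fold of the control level.

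Within each library, the share of *Ror2* in the sum of *Ror1* and *Ror2* was computed from counts per kilobase of exon. A single scaling factor per library does not change it. An adjustment for GC content could, since the longest transcripts of *Ror2* and *Ror1* are 58.9% and 47.2% G and C. No share was computed with such an adjustment. The share was 65.0%, 66.5% and 64.7% in control libraries and 59.3%, 70.9% and 59.3% in mutant libraries. Mutant library 2, which had the lowest *Ror1*, lay above all controls and the other mutants lay below them. The means were 65.4 ± 0.979% and 63.2 ± 6.69%, a difference of -2.17 percentage points that was smaller than the spread of the mutants (exact permutation test, two-sided, p = 0.6). The mutant libraries decided its size, with -6.04 percentage points without mutant library 2, -0.242 without mutant library 1 and -0.239 without mutant library 3.

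*Ryk*, a receptor with an inactive kinase domain that binds Wnt ligands (ENSMUSG00000032547.12; chr9, 102834917 to 102908305, plus strand), was measured at 147, 131 and 134 CPM in control libraries. In mutant libraries it was measured at 125, 113 and 129 CPM. The highest mutant lay just below the lowest control, so that the groups did not overlap. The means of 137 ± 8.24 and 123 ± 8.28 CPM differed by a log2 fold change of -0.16 (standard error 0.1, 95% interval -0.4 to 0.07), short of the threshold (edgeR adjusted p = 0.27).

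*Ptk7*, a pseudokinase of planar cell polarity (ENSMUSG00000023972.10; chr17, 46564471 to 46629504, minus strand), was measured at 321, 303 and 306 CPM in control libraries and at 446, 321 and 358 CPM in mutant libraries. Mutant library 1 stood above the others, and mutant library 2 was at the level of the highest control. The log2 fold change was 0.27 (standard error 0.14, 95% interval -0.05 to 0.6, edgeR adjusted p = 0.18). Its value rested on single libraries, with 0.13 (edgeR adjusted p = 0.47) without mutant library 1. It also moved with the GC content of exons, to 0.06 (edgeR adjusted p = 0.82) with an offset for GC content.

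*Wnt5a*, the main ligand of *Ror2* (ENSMUSG00000021994.15; chr14, 28504750 to 28527448, plus strand), was measured at 176, 244 and 230 CPM in control libraries. In mutant libraries it was measured at 138, 111 and 140 CPM. Control library 1 was the lowest control and still lay above all 3 mutant libraries. The levels of 217 ± 36.2 and 130 ± 15.9 CPM differed by a log2 fold change of -0.74 (standard error 0.15, 95% interval -1.09 to -0.39, edgeR adjusted p = 0.016), and the exact permutation test gave p = 0.1. *Wnt5a* stood at position 1469 of the genes tested, and 6418 to 14240 counts per library lay behind it.

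A part of *Wnt5a* overlaps *Gm2670*, an antisense gene, over 358 bases of exon, and 2.69% of the 75-base stretches of *Wnt5a* transcripts occur in it. Whether the counting used strand is not given in the sources used here. *Gm2670* was at 1.37 ± 0.0769 CPM in control and 1.39 ± 0.242 CPM in mutant libraries, and the sum of both genes changed by -0.73 on the log2 scale. The other receptors and *Wnt5b* shared no stretch of 75 bases with another gene.

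*Wnt5b*, the closest relative of *Wnt5a* (ENSMUSG00000030170.14; chr6, 119432531 to 119544347, minus strand), was measured at 11.8, 14.2 and 12.9 CPM in control libraries and at 13.3, 15.3 and 12 CPM in mutant libraries. The libraries of both groups were interleaved. The log2 fold change was 0.06 (standard error 0.13, 95% interval -0.24 to 0.36, edgeR adjusted p = 0.76), and its sign changed with the processing, to -0.19 with an offset for GC content.

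*Wnt11*, a ligand known for its part in convergent extension and kidney branching (ENSMUSG00000015957.12; chr7, 98835112 to 98855195, plus strand), was measured at 9.25, 9.4 and 9.59 CPM in control libraries. In mutant libraries it was measured at 11.5, 11.6 and 11.7 CPM. It was the only one of the 7 genes for which all mutant libraries lay above all control libraries, and both groups were narrow. The levels of 9.41 ± 0.167 and 11.6 ± 0.1 CPM gave 23.0% more in mutants (95% interval 4.62% to 44.6%) and a log2 fold change of 0.30 (standard error 0.1). The unadjusted p-value was 0.018 and the adjusted p-value was 0.07 (edgeR's quasi-likelihood test). Without adjustment 38.3% of all genes tested had a p-value under 0.05, and *Wnt11* joined *Ror2* and *Wnt5a* as the 3 genes of the 7 that did.

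The call for *Wnt11* differed between tools and with GC content. DESeq2 gave an adjusted p of 0.044 and limma voom 0.049, whereas with an offset for GC content the log2 fold change was 0.11 (edgeR adjusted p = 0.48). Between 548 and 688 counts per library lay behind it. An opposite-strand pseudogene, *Gm8398*, overlaps 364 bases of *Wnt11* exon and holds 6.79% of its 75-base stretches, and it has no row of its own in the count table.

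**Figure D2:**
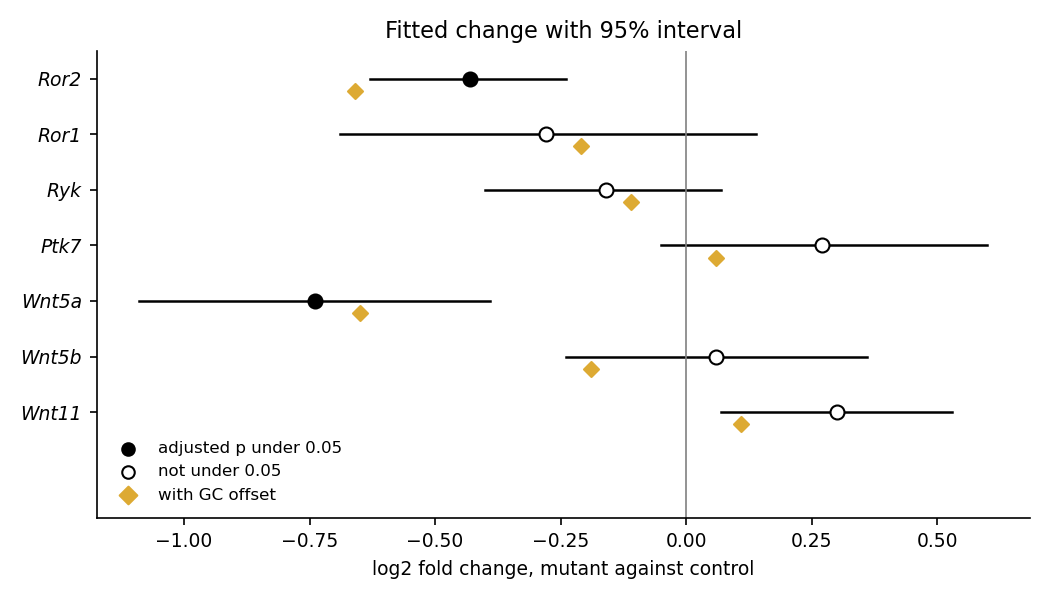
Log2 fold changes of the 7 genes, mutant against control, with 95% intervals from edgeR (circles and lines) and the value with an offset for GC content (diamonds). The intervals of *Ror2*, *Wnt5a* and *Wnt11* exclude 0, the filled circles of *Ror2* and *Wnt5a* mark an adjusted p-value under 0.05, and the diamonds of *Ptk7* and *Wnt11* lie near 0.

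The genes differ in the base composition of their transcripts, and the fitted values moved with it. The longest transcripts of *Ror2*, *Ptk7*, *Wnt5b* and *Wnt11* are 58.9%, 59.0%, 60.0% and 56.5% G and C, and those of *Ror1*, *Ryk* and *Wnt5a* are 47.2%, 47.8% and 46.7%. With an offset for GC content, the log2 fold changes of the first 4 genes moved down, to -0.66 for *Ror2* (edgeR adjusted p = 0.0022). Those of the other 3 moved up, to -0.65 for *Wnt5a* (edgeR adjusted p = 0.021), -0.21 for *Ror1* and -0.11 for *Ryk*. *Ror2* and *Wnt5a* stayed lower, and past the threshold, with this offset, and their decreases were then of nearly the same size. Which of the scalings is nearer to the RNA in the tissue was not tested.

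Levels of different genes were compared as CPM per kilobase of exon. In control libraries *Ptk7* was the highest, at 57.6 ± 1.74 CPM per kilobase, followed by *Ryk* at 30.3 ± 1.82 and *Wnt5a* at 27.7 ± 4.62 CPM per kilobase, whose ranges overlapped. *Ror2* followed at 8.73 ± 0.242 CPM per kilobase, below *Wnt5a* and above *Wnt5b* in every control library. *Wnt5b* and *Ror1* could not be ordered, at 4.9 ± 0.448 and 4.63 ± 0.289 CPM per kilobase with overlapping ranges, and *Wnt11* was the lowest at 2.28 ± 0.0403 CPM per kilobase.

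The order of the means was the same in mutant libraries, while the distances changed. *Ryk* and *Wnt5a* no longer overlapped, at 27.0 ± 1.83 and 16.6 ± 2.04 CPM per kilobase. *Ror2* was at 6.46 ± 0.227 CPM per kilobase, 1.27 times the mean of *Wnt5b*, where the ratio in controls was 1.78. *Ror1* and *Wnt11* overlapped, at 3.82 ± 0.969 and 2.8 ± 0.0242 CPM per kilobase, because *Ror1* was low in mutant library 2.

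**Figure D3:**
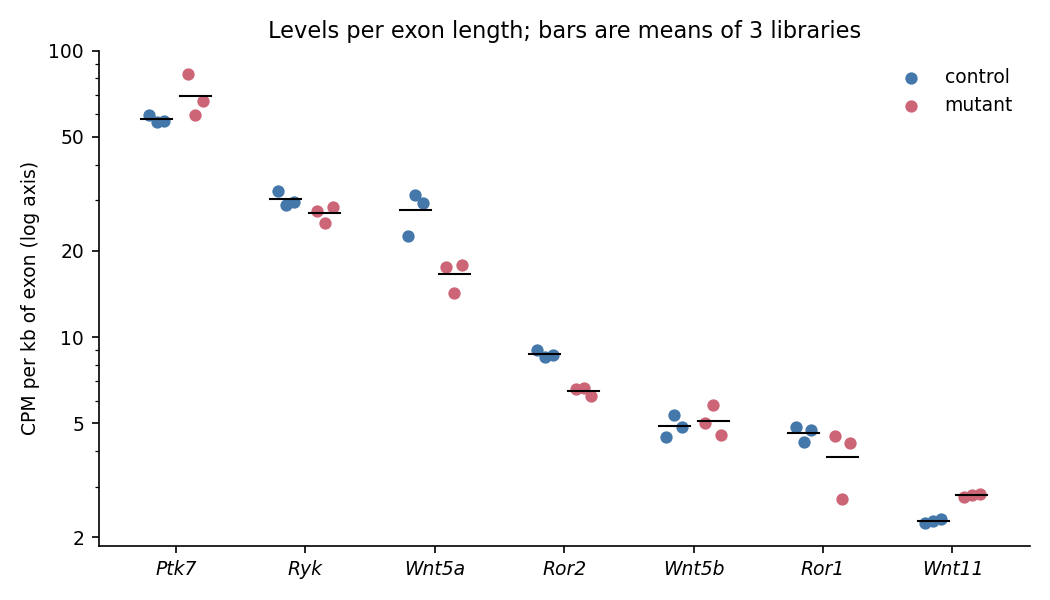
Level of each gene per kilobase of exon (CPM per kilobase, log axis) in control libraries (blue) and mutant libraries (red), ordered by the control mean, with bars at the means of 3 libraries. *Ptk7* is the highest and *Wnt11* the lowest in both groups, and *Ryk* and *Wnt5a* overlap in control libraries only.

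*Wnt5a* made up most of the summed level of the 3 ligands, in counts per kilobase of exon without an offset for GC content. Its share was 77.0%, 80.4% and 80.3% in control libraries and 69.4%, 62.4% and 70.8% in mutant libraries. All mutant shares lay below all control shares, with means of 67.5 ± 4.54% and 79.2 ± 1.93%. The difference was -11.7 percentage points (exact permutation test, two-sided, p = 0.1, the smallest possible), and -6.92 percentage points (p = 0.1 in the same exact test) where counts were not divided by exon length.

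The likeness of the expression patterns was described by Pearson's correlation of log2 CPM over the 6 libraries, among 11619 genes with a mean of at least 5 CPM. The 6 points share the division into genotypes, and any gene that differs between genotypes correlates with another that does. *Wnt5a* had a correlation of 0.82 with *Ror2*, *Ryk* 0.72, *Ror1* 0.5, *Wnt5b* -0.19, *Ptk7* -0.64 and *Wnt11* -0.99. The genes most like *Ror2* were *Ube2d3*, *Rpl36a-ps1* and *Rps15a-ps5*, with correlations of 0.9986, 0.9984 and 0.9978. *Ube2d3* encodes a ubiquitin-conjugating enzyme, and the other two are ribosomal protein pseudogenes, whose counts can be shared with near-identical copies. In all 1.75% of the genes correlated with *Ror2* at over 0.95. The genes most like *Wnt5a* were *Zfp60*, *Hook3* and *Trim59*, with correlations of 0.9995, 0.9988 and 0.9984, and 5.7% of the genes were over 0.95.

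The other genes of the pathway were taken as a list of 77 genes in 5 roles, all of which passed the filter on low counts. Of these, 3 were higher, 12 were lower and 62 did not pass the test. The 15 called genes are 19.5% of the list, beside 20.2% of all genes tested, which is close to that background. The median log2 fold change of the list was -0.15, where that of all genes tested was 0.01. In the list 51 of the 77 genes had a value below 0, beside 9536 of the 19330 genes tested. The calls lower in mutants thus outnumbered those higher in the list, whereas over all genes tested 10.4% were higher and 9.84% lower. With an offset for GC content, 2 of the 77 were called higher and 9 lower, beside 1600 higher and 1233 lower over all genes. Single genes moved both ways with it, such as *Fzd2* from -0.14 to -0.33 and *Atf2* from -0.24 to 0.07.

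Frizzled receptors, which bind Wnt ligands together with the Ror receptors, showed 1 call among 10 genes. *Fzd1* fell from 38.9 ± 4.95 to 26.8 ± 2.79 CPM (log2 fold change -0.54, edgeR adjusted p = 0.024). All 10 genes had a log2 fold change below 0, with a median of -0.24. The genes of highest CPM, *Fzd7* and *Fzd6*, had -0.31 (edgeR adjusted p = 0.19) and -0.16 (edgeR adjusted p = 0.49).

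Of 16 genes of planar cell polarity, 1 was higher and 2 were lower, with a median log2 fold change of 0.03. The atypical cadherins *Fat4* and *Dchs1*, a receptor and its ligand, both fell. *Fat4* was measured at 55.8, 95.3 and 88.6 CPM in the controls, against 44.3, 27.8 and 47.4 CPM in the mutants (log2 fold change -1.0, edgeR adjusted p = 0.027), and *Dchs1* had -0.59 (edgeR adjusted p = 0.041). *Prickle3*, a cytoplasmic polarity protein, rose from 16.1 ± 0.48 to 26 ± 5.37 CPM (log2 fold change 0.69, edgeR adjusted p = 0.018). *Celsr1* and *Celsr2*, the genes of highest CPM in this role, had -0.23 (edgeR adjusted p = 0.45) and 0.01 (edgeR adjusted p = 0.97).

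Of 14 genes of the small GTPase and JNK branch, 1 was higher and 3 were lower, with a median of -0.24. *Cdc42*, a small GTPase that the study followed as a mediator of *Ror2*, was measured at 260, 256 and 249 CPM in control and at 203, 177 and 207 CPM in mutant libraries. The groups did not overlap, and the log2 fold change was -0.38 (95% interval -0.63 to -0.14, edgeR adjusted p = 0.039). With an offset for GC content it was -0.16 (edgeR adjusted p = 0.32), and 10 of 18 alternatives had an adjusted p-value under 0.05. The study assayed GTP-bound Cdc42 protein, which was reduced in mutants, and treated molars with a Cdc42 activator. The values here are RNA and do not measure that activity.

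The kinase gene *Rock1*, which acts on the actin cytoskeleton, decreased by 0.48 in log2 (edgeR adjusted p = 0.024), and the value was -0.16 (edgeR adjusted p = 0.27) with the GC offset. *Mapk10*, which encodes the kinase JNK3, fell from 5.47 ± 0.228 to 2.41 ± 0.821 CPM (log2 fold change -1.19, edgeR adjusted p = 0.015). *Map2k7*, an activator of JNK, rose from 54.0 ± 2.24 to 73.3 ± 8.69 CPM (log2 fold change 0.44, edgeR adjusted p = 0.026, and 0.094 with the GC offset). *Rac1*, another small GTPase, had -0.25 (edgeR adjusted p = 0.11).

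Of 20 genes of the calcium branch, 3 were lower and 0 higher, and 17 of the 20 had a log2 fold change below 0, with a median of -0.30. *Ppp3cb*, a catalytic subunit of the phosphatase calcineurin, had the smallest p-value of the list and fell from 62.7 ± 2.22 to 41.5 ± 2.38 CPM (log2 fold change -0.59, edgeR adjusted p = 0.0047). It had -0.25 (edgeR adjusted p = 0.078) with the GC offset. *Itpr2*, a receptor that releases calcium from internal stores, fell from 16.1 ± 2.73 to 9.17 ± 1.09 CPM (log2 fold change -0.82, edgeR adjusted p = 0.013). *Prkca*, protein kinase C alpha, had -0.59 (edgeR adjusted p = 0.045, and 0.063 with the GC offset). *Itpr1* and *Itpr3*, the genes of highest CPM in this role, had -0.80 (edgeR adjusted p = 0.053) and -0.15 (edgeR adjusted p = 0.57).

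Of 17 modulators of *Wnt5a* and the Ror receptors, 1 was higher and 3 were lower, with a median of 0.03. *Cthrc1*, a secreted protein that joins Wnt ligands to Ror2 and Frizzled, was measured at 17.4, 24.4 and 23.2 CPM in the controls, against 13.3, 13.6 and 11.7 CPM in the mutants, without overlap. Its log2 fold change was -0.75 (edgeR adjusted p = 0.014). *Dact1*, a Dishevelled-binding protein, had -0.41 (edgeR adjusted p = 0.02), and *Kif26b*, a kinesin that is degraded in response to *Wnt5a*, had -0.58 (edgeR adjusted p = 0.029). *Mcam*, a membrane protein described as a Wnt5a receptor, rose by 0.34 (edgeR adjusted p = 0.041, and 0.15 with the GC offset). *Flna* and *Kif26a*, the genes of highest CPM in this role, had -0.20 (edgeR adjusted p = 0.31) and 0.27 (edgeR adjusted p = 0.15).

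**Figure D4:**
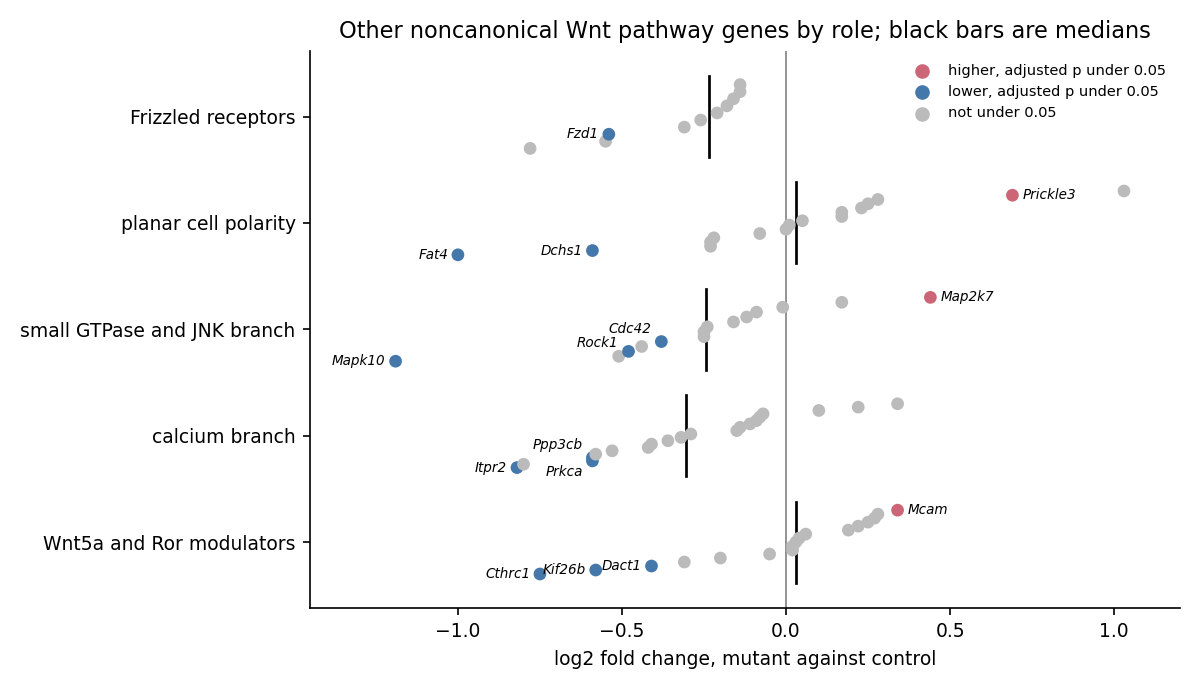
Log2 fold changes of the 77 other pathway genes, mutant against control, by role, with black bars at the median of each role. The 12 blue points were called lower and the 3 red points higher at an adjusted p-value under 0.05 (edgeR), and all 10 Frizzled genes lie to the left of 0.

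The calls depended on the controls. *Ror2* kept its direction in all 18 alternatives and *Wnt5a* in all 19. Leaving out control library 2 or control library 3 gave adjusted p-values of 0.066 and 0.075 for *Ror2* and 0.075 and 0.076 for *Wnt5a* (edgeR). In either case 0 of the 7 genes and 1 of the 77 pathway genes passed. Calls also fell over all genes tested, from 3906 of 19330 to 910 of 19896 and 872 of 19867.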

How the data were processed

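RNA of 3 control and 3 *Osr2-Cre;Ror2fl/fl* libraries was sequenced by the study as single-end reads of 75 cycles. The authors deposited estimated counts per gene, not normalized, of which 47.8% are whole numbers. The methods name TopHat 2 and the submitters' processing notes STAR 2.6.1d and Partek, both with mm10, and which aligner made the table is not settled here. The counting program and its annotation are not given in the sources used here. The authors also deposited a normalized signal table, where a value equals the estimated count plus 1 times 1 factor per library (within 0.0016%), for 22061 genes. In that table the upper quartile was 25.8 in every library. Another 6 columns of the count table belong to samples that no label names and were not used.

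Estimated counts were rounded, since the tests had been planned for counts, scaled by TMM, filtered with filterByExpr (19330 of 27506 genes kept) and compared with edgeR's quasi-likelihood test (edgeR 4.0.16, R 4.3.3) with Benjamini-Hochberg adjustment and a threshold of 0.05. Exact permutation tests used log2 CPM (prior count 2). Alternatives used limma 3.58.1, DESeq2 1.42.0, other scalings and filters, the normalized table with pseudocounts of 1 and 0.1, offsets for GC content and exon length, a block for the replicate number, and fits without each library. The edgeR fit was tested on simulated data. No 2 libraries of a group agreed within sampling noise (chi-square per gene of 56.2 to 244). Gene coordinates, exon lengths and transcripts are those of GENCODE M21, in which 27493 of the listed genes start at the same position.

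The 7 genes and all lists were chosen with earlier results of these data known. Named genes are the 7, in each pathway role up to 4 called genes of smallest p and the 2 of highest CPM, *Cdc42* and *Osr2*, the 3 genes most like *Ror2* and *Wnt5a*, and leading markers. *Gm2670* and *Gm8398*, and markers named with their changes, were chosen after their values were seen. The markers of glia and Schwann cells are not reported here.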

Additional observations from a re-analysis of the deposited data

How the results depend on the processing

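*Ror2* kept its direction in all 18 alternatives, with log2 fold changes from -0.66 to -0.40 and adjusted p-values from 0.00021 to 0.075, under 0.05 in 15 of them. *Wnt5a* ran from -0.88 to -0.57 over 19 alternatives and was under 0.05 in 17. The additional one, its sum with *Gm2670*, was chosen after seeing the data. *Ror1* and *Ryk* stayed below 0 and above the threshold in all 18, and *Ptk7* and *Wnt11* stayed above 0. limma voom with quality weights called *Ptk7* (0.37, adjusted p = 0.025) and *Wnt11* as well, with 4 of the 7 genes, 28 pathway genes and 6341 of all genes called.

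The sign of *Wnt5b* reversed to -0.01 with limma voom, -0.19 with the GC offset, -0.23 with offsets for GC content and exon length, -0.01 without control library 1 and -0.03 without mutant library 2, and fits without 1 library ran from -0.03 to 0.13. With both offsets 9 of the 77 pathway genes were called, beside 2947 of the 19330 genes tested.

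Leaving out 1 library gave log2 fold changes of -0.46 to -0.41 for *Ror2*, 872 to 5001 genes called of all tested, 0 to 2 of the 7 and 1 to 19 of the pathway list. The lowest counts came without control library 3 (872) and control library 2 (910). Without mutant library 1, 2404 genes and 8 pathway genes were called.

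Same-numbered control and mutant libraries did not deviate together (correlations of -0.162, -0.0651 and 0.0362). With 3 libraries per group this cannot exclude a pairing, and the study's methods speak of pairs of samples without naming them. With the replicate block, *Ror2* had -0.43 (edgeR adjusted p = 0.058), and 1 of the 7 genes, 6 pathway genes and 2013 of all genes were called. The differences of both within-library shares kept their sign in all 8 alternatives each, none of which used an offset for GC content. Without 1 library, that of *Ror2* ran from -6.04 to -0.239 percentage points and that of *Wnt5a* from -13.4 to -9.13. Without division by exon length, the latter was -6.92. The cause of these changes was not tested. The lowest counts behind a gene were those of *Wnt11*, 548 to 688 per library.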
